A study of Caenorhabditis elegans with 2 samples.

Results

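Distal intergenic summits are the points of highest ChIP-seq signal of eGFP-NHR-28 that lay outside every annotated gene and more than 3000 bp from the nearest annotated start of a protein-coding gene (transcription start site, TSS). They were taken from the deposited optimal set of regions that passed the irreproducible discovery rate (IDR) procedure, using the Ensembl annotation of WBcel235, and no signal value entered the rule. Of the 8745 optimal summits, 5290 lay outside genes and 768 of these were distal. The distal summits were 8.78% of the optimal set, with a 95% Wilson interval of 8.21 to 9.39% that covers counting error only. The remaining 4522 summits outside genes are called other intergenic summits. Both samples were of whole L4 larvae of the nematode Caenorhabditis elegans, strain OP317 with the genotype unc-119(ed3) III; wgIs317, in which wgIs317 is an integrated transgene carrying tagged nhr-28. They are labelled as biological replicates 1 and 2 of 1 group with males and females pooled, and an untagged strain was not analysed here. The transgene and the unc-119 mutation are therefore shared by all values below. Because the animals were whole, cell types cannot be told apart.

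NHR-28 belongs to the nuclear hormone receptors, a family of zinc-finger transcription factors that is greatly expanded in nematodes and of which many members regulate metabolism, detoxification and development. In this compact genome most regulatory sequence that has been studied lies close to the genes it controls, and distal enhancers are less often described than in mammals. Many C. elegans messages are trans-spliced, so the annotated 5′ end of a gene can be the splice acceptor and the true initiation site can lie upstream of it.

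The windows below are 151 bp long and centred on 6 of the 15 distal summits of highest signal, and they are shown because the positions of matched motifs differ so widely among them. They were read from the plus strand of the WBcel235 reference (ce11) of RefSeq. Capitals mark a match to any of the 15 motifs searched, on either strand. These windows reach 75 bp to each side of the summit, while the motif shares given later count matches within 50 bp.
Summit between got-2.2 and W05H9.4 (chrX:6255694-6255844): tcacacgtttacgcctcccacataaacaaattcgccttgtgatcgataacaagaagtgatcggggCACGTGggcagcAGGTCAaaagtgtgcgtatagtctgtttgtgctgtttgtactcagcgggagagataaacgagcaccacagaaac
Summit beside atfs-1 (chrV:14200173-14200323): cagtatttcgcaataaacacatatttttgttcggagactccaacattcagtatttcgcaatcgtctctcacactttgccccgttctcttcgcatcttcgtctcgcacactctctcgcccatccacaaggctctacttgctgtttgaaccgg
Summit between C08E8.10 and C08E8.3 (chrV:18346205-18346355): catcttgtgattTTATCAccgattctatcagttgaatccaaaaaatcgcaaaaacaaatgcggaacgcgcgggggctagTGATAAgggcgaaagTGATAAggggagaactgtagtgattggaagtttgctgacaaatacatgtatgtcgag
Summit between emb-8 and morc-1 (chrIII:5202758-5202908): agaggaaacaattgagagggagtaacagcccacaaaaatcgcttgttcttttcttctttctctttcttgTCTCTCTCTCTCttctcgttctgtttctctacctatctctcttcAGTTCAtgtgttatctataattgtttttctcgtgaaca
Summit beside Y37D8A.5 (chrIII:12849830-12849980): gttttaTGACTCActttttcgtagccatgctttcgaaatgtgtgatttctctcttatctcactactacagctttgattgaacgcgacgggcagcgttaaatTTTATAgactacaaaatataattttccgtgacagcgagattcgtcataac
Summit between fat-1 and fat-2 (chrIV:13318819-13318969): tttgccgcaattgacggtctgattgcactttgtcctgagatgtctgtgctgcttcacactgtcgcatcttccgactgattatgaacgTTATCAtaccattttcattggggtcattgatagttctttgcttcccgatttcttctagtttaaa
The window between got-2.2 and W05H9.4 held CACGTG, the E-box core bound by many basic helix-loop-helix factors, starting 10 bp before the summit, and AGGTCA, a half-site recognised by many nuclear receptors, starting 2 bp after it. The window beside atfs-1 held none of the 15 motifs. The window between C08E8.10 and C08E8.3 held 3 matches to TGATAA, the motif of GATA factors such as those that direct the intestine. Of these, 1 reads TTATCA because it lies on the minus strand, and it was more than 50 bp from the summit. The window between emb-8 and morc-1 held a run of overlapping GAGAGAGA matches on the minus strand and an AGTTCA half-site. The window beside Y37D8A.5 held TGACTCA, an AP-1 type site, and the TATA-like TATAAA on the minus strand. This TGACTCA lay more than 50 bp from the summit, so it is not counted in the later share. The window between the fatty acid desaturase genes fat-1 and fat-2 held 1 TGATAA match, starting 12 bp after the summit. A match is a description of the letters and not a measured site of contact.

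The highest distal summits were spread over chromosomes and over genes of unlike function. Signal is the authors' own value per region. No source used here states its scale, and it serves only to order regions within a list. The first lay at X 6255492 to 6255983 with a signal of 703, and the replicate lists gave it 407 (replicate 1) and 301 (replicate 2). It stood 13060 bp beyond the 3′ end of got-2.2, an aspartate aminotransferase gene, and 7879 bp upstream of W05H9.4, and the nearest gene of any type was the long non-coding RNA gene linc-103 at 1009 bp. The second, at V 14200056 to 14200486, had a signal of 629, with 376 in replicate 1 and 255 in replicate 2. It lay 2548 bp beyond the 3′ end of atfs-1, the transcription factor of the mitochondrial unfolded protein response, whose own promoter held a summit of 216.

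A summit at V 18346100 to 18346460 reached 502, with 281 in replicate 1 and 219.9 in replicate 2, between the divergent genes C08E8.10 and C08E8.3. Another at III 5202580 to 5203078 reached 501, with 321 in replicate 1 and 209.5 in replicate 2. It stood 3156 bp upstream of emb-8, the gene for the reductase that supplies electrons to cytochrome P450 enzymes, and 852 bp from the 3′ end of morc-1, which encodes a chromatin ATPase that acts with small RNAs in the germline. The emb-8 promoter had a summit of its own with a signal of 251, below that of the distal one. The summit at III 12849708 to 12850082 had a signal of 498, with 280.5 in replicate 1 and 222 in replicate 2, and lay 4144 bp from Y37D8A.5. In every one of these 5 regions replicate 1 carried the higher value, as at 664 of the 757 distal summits found in both lists.

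Among the other 10 of the 15 highest, a summit of 492 (320.1 in replicate 1 and 169 in replicate 2) lay 3511 bp upstream of anc-1, which encodes the nesprin-like protein that anchors nuclei, and the anc-1 promoter summit was 100.4. A summit of 491 had 279 in replicate 1 and 214 in replicate 2. It lay 4681 bp upstream of nhr-20, itself a nuclear hormone receptor gene, and 3430 bp from F43C1.7. A pair of them shared 1 divergent gap between irld-18, named for a receptor-like L domain, and dmd-6, a DM-domain gene. The one at IV 14594143 to 14594671 reached 459 (272 in replicate 1 and 188 in replicate 2). The one at IV 14610903 to 14611267 reached 373 (205 in replicate 1 and 168 in replicate 2). A summit of 434 at X 16929495 to 16930036 lay between the convergent genes C30E1.4 and F52G3.8, and it was the only one of the 15 with the higher value in replicate 2 (228, against 211 in replicate 1). A summit of 426 lay 3593 bp upstream of let-418, an Mi-2 chromatin remodeller gene, and a summit of 382 lay 3348 bp upstream of ptr-22, a patched-related gene. A summit of 424 at IV 13919252 to 13919548 lay between Y37A1A.2 and Y37A1A.4, and a summit of 338 lay 345 bp from the 3′ end of klc-2, a kinesin light chain gene, with glb-6, a globin gene, on its other side.

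The summit at IV 13318742 to 13319128, with a signal of 404, separated a pair of genes of one pathway. It lay 83 bp beyond the 3′ end of fat-1, the omega-3 desaturase gene, and 4979 bp upstream of fat-2, the delta-12 desaturase gene that makes linoleic acid. Replicate 1 gave it 264 and replicate 2 gave it 149. Neither fat-1 nor fat-2 had a promoter summit in the optimal set. Of the 15 regions, 6 had a promoter summit at a flanking gene and 6 had TGATAA within 50 bp. By signal they ranked between 7 and 181 in the lists of single replicates.

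**Figure D1:**
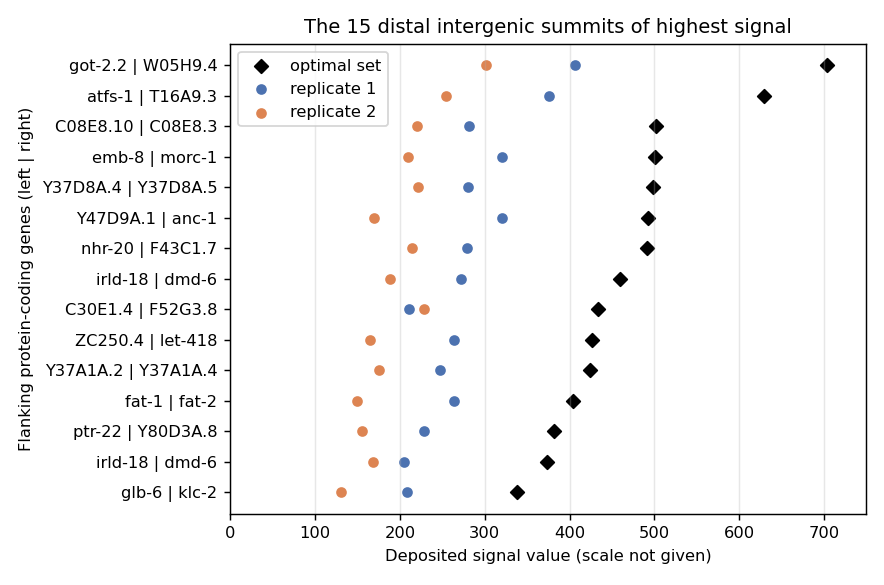
The deposited signal value (x axis, scale not given) of the 15 distal intergenic summits of highest signal, named by their left and right protein-coding neighbours. Diamonds give the optimal set and circles give replicates 1 and 2, and the optimal values run from 338 to 703. Replicate 1 lies right of replicate 2 in every row but that of C30E1.4 and F52G3.8. It was the higher one at 664 of the 757 distal summits found in both lists.

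Across all 768 distal summits, the lowest signal was 36.2, the quartiles were 50.3 and 114, the median was 71.0 and the highest was 703. The median was 76.1 among other intergenic summits and 72.7 in the optimal set, both of which ran from 36.2 to 993. Above the optimal median lay 370 distal summits (48.2%), against 53.0% of other intergenic summits. When the optimal set was divided by signal into 10 bins of equal size, distal summits made up 7.78 to 9.71% of each bin. They supplied 13 of the 100 highest optimal summits and 20 of the 300 highest. Regions are not replicates of a condition, so none of these differences was given a test. In the pooled list of 29697 regions, which includes weak ones, 2442 summits were distal by the same rule (8.22%), and 31.4% of those were in the optimal set, against 29.4% of all pooled regions.

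Summits thinned out with distance from coding genes but did not end at 3 kb. Outside genes there were 469 summits per Mb within 250 bp of a TSS and 91.8 per Mb between 2.5 and 3 kb. Beyond the limit the density was 102 per Mb at 3 to 4 kb, 79.3 at 4 to 5 kb, 80.5 at 5 to 6 kb, 73.4 at 6 to 7.5 kb, 55.7 at 7.5 to 10 kb and 61.1 at 10 to 15 kb. Farther than 15 kb there were only 4 summits, at 18.5 per Mb. All distal sequence together, 9.44 Mb or 9.42% of the genome, held 81.3 summits per Mb, against 189 per Mb in the other sequence outside genes and 87.2 optimal summits per Mb of the whole genome. The median distance to a TSS was 4416 bp, with quartiles of 3572 and 5922 bp, so 314 (40.9%) lay within the first kilobase past the limit. Signal did not follow distance among the 768 summits, with a Spearman rho of -0.0195 across regions of 1 list from the same libraries.

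**Figure D2:**
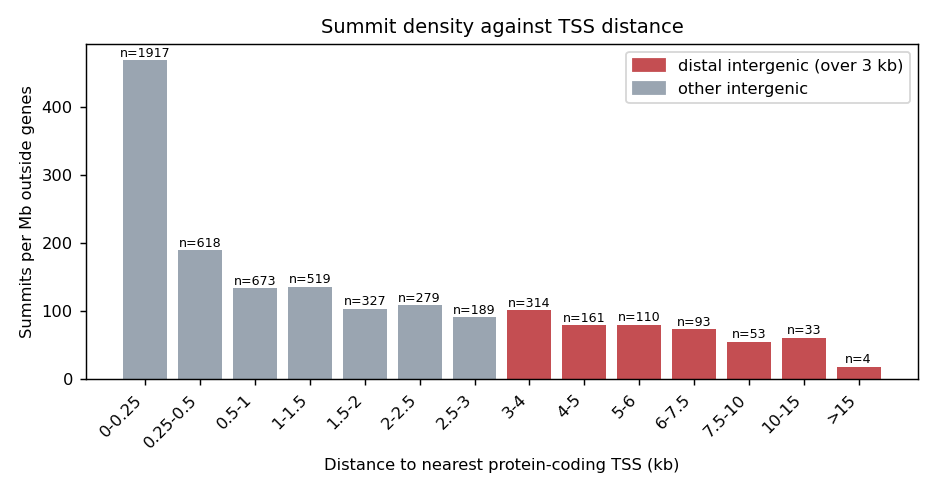
Optimal summits outside genes per Mb of such sequence (y axis) by distance to the nearest protein-coding TSS in kb (x axis), with the number of summits over each bar. Bars past 3 kb are the distal intergenic summits, which run between 55.7 and 102 per Mb up to 15 kb, and the last bar holds only 4 summits.

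At the limit itself, the 3 summits just inside were 3009 bp from F49E12.12 (signal 118.7), 3015 bp from bca-1 (83.8) and 3016 bp from T27D12.6 (48.1). The 3 just outside were 3000 bp from F19C7.8 (90.9), 2993 bp from adh-1 (146) and 2986 bp from F07H5.13 (176). At the other extreme, the 5 farthest summits all had signals below the distal median. The farthest, at X 11230 to 11579 with a signal of 36.4, lay 35528 bp from Y73B3A.1 at the end of the chromosome. Next came X 12188469 to 12188818 between F57G12.1 and cab-1 (16963 bp, 38.8) and IV 14597744 to 14598093 between irld-18 and dmd-6 (16880 bp, 52.3). The others were IV 5775959 to 5776308 between nhr-46 and C31H1.2 (15159 bp, 53.8) and III 7676891 to 7677240 between lido-18 and C18H2.5 (14788 bp, 47.2).

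Chromosome X held 211 distal summits, 27.5% of all, and they were 11.5% of its 1830 optimal summits. The X chromosome also had the most distal sequence, 2.37 Mb or 13.4% of its length, and its density of 89.2 summits per Mb of distal sequence was within the range of the autosomes. The densities were 93.2 on I, 95.8 on II, 90 on III, 57.2 on IV and 77.9 on V. Chromosome IV, with 127 summits, had the lowest density and the next largest stretch of distal sequence (2.22 Mb). Median signal ran from 67.4 on I to 77.9 on IV.

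On the upstream side of the gene with the nearest TSS lay 536 distal summits (69.8%), against 92.9% of other intergenic summits and 62.9% of windows that tile distal sequence. In divergent gaps, where the layout of the genes puts a summit upstream, all 250 were upstream. In tandem gaps, where either side is possible, 282 of 444 were upstream (63.5%), against 58.6% of such windows. By the directions of both flanking coding genes, 250 of the 768 (32.6%) were in divergent gaps, 444 (57.8%) in tandem gaps and 72 (9.38%) in convergent gaps, against 44.7, 52.8 and 2.52% of other intergenic summits, and 2 lay at chromosome ends. Per Mb of distal sequence there were 84.7 in divergent gaps, 88.7 in tandem gaps and 49.2 in convergent gaps. Of the gaps with any distal sequence, 138 of 613 divergent (22.5%), 279 of 1439 tandem (19.4%) and 45 of 678 convergent ones (6.64%) held a distal summit. Convergent gaps with distal sequence were shorter, with a median of 2624 bp, against 9450 bp for divergent and 6477 bp for tandem ones, so the shares were also taken over gaps of at least 10000 bp, where the median lengths were 13752 bp (divergent), 12752 bp (tandem) and 13751 bp (convergent). There 89 of 277 divergent (32.1%), 91 of 306 tandem (29.7%) and 11 of 60 convergent gaps (18.3%) held a distal summit. Median signal was 69.6 in divergent, 71.0 in tandem and 79.5 in convergent gaps. The 3′ end of a coding gene was within 1000 bp of 79 summits (10.3%), whose median signal was 64.4, against 72 for the others.

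The 768 summits had 909 coding genes as their left or right neighbours. A promoter summit, placed from 1000 bp upstream to 200 bp downstream of a TSS, was present at 291 of these genes (32.0%), against 24.8% of all 19973 protein-coding genes. The second share includes genes that border no distal sequence. It was not computed for the 4823 genes that do, so the difference is not read as a link between distal and promoter summits. Counted by summit, 440 (57.3%) had a promoter summit at a flanking gene or at both, against 88.4% of other intergenic summits, many of which are promoter summits themselves. Both flanks had one in 85 cases (11.1%). In 179 of the 440 (40.7%) the distal signal exceeded every promoter summit of its flanks, as for emb-8 and anc-1 above. The other 328 distal summits (42.7%) had no promoter summit at either neighbour. Their median signal was 66.9, against 74.5 for those with one.

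Genes for nuclear hormone receptors were the list with most genes flanking a distal summit. Gene lists were made by symbol. Each count is a share of the list's genes that border distal sequence, because a gene with short gaps cannot have a distal summit. A summit counts for the coding gene on each side at any distance, so the same summit can appear under different lists. The background is 18.8% of the 4823 coding genes beside distal sequence, or 4.55% of all coding genes. The shares are given without a test and do not take account of how much distal sequence a gene borders. Of all gaps with distal sequence 16.9% held a distal summit, and of gaps of at least 10000 bp 29.7% did. The part of gap length in the differences between lists was not tested. Of the receptor genes beside distal sequence, 32 of 89 (36%) flanked a distal summit, which is 11.7% of the 274 on the list. The summit was upstream of 27 of the 32, and 18 had more than 1. The upstream count was 13 of 16 for signalling ligands and receptors, 13 of 23 for other developmental transcription factors and 5 of 17 for chemoreceptors. More than 1 summit was at 5, 12 and 6 of these. The same shares over all 909 flanking genes were not computed, so neither count is read as particular to nuclear receptor genes. The 72 summits at these genes had a median signal of 75. The highest was the one of 491 at nhr-20, followed by 252 at nhr-3 (171 in replicate 1 and 83.3 in replicate 2), which lay 7026 bp downstream. At nhr-138 the highest was 218, 6621 bp upstream, and at nhr-11 it was 214, 18027 bp upstream. Each of these summits lay nearer to the coding gene on its other side. In the same order, these genes were F43C1.7 (3430 bp), C44H4.4 (398 bp), K01H12.4 (3744 bp) and Y73F4A.1 (6624 bp). On the receptor list 22 genes were the gene of the nearest TSS of a distal summit. Of the 32 genes, 18 also had a promoter summit.

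Some receptor genes, named after their values were seen, had many distal summits. Upstream of nhr-1 there were 7, with signals from 41.0 to 172 that were all below its promoter summit of 240.4. Downstream of nhr-3 there were 6 (43.6 to 252, promoter 206), and upstream of nhr-46 there were 6 (53.8 to 192) and no promoter summit. The summits at nhr-46 shared a divergent gap with C31H1.2. The 3 from IV 5776134 to 5780596 lay nearer to C31H1.2 than to nhr-46. The steroid-type receptor gene daf-12, which governs dauer entry and developmental timing, had 2, at 54.7 and 43.2. Upstream of nhr-40 lay 2 summits (151 and 129) with a promoter summit of 320.1. Members of 1 gap share their neighbours, so the summits of a gene are not separate observations of it.

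Other regulators and signalling genes were also above the background share. Of the list of other developmental transcription factors 23 of 74 (31.1%) flanked a distal summit. The highest were at hlh-10, a helix-loop-helix gene (226), klf-1, a Krüppel-like factor gene (201, with a promoter summit of 160.4), egrh-1 (179) and sox-2 (172). The summit at sox-2 lay 12317 bp from it and nearer to acl-12. Among ligands and receptors of signalling pathways the count was 16 of 52 (30.8%). Its highest were the 382 at ptr-22 and 331 at ptc-3, which encodes a patched-family protein, 5109 bp upstream and with no promoter summit. A summit of 161 lay between sax-3, the Robo guidance receptor gene, and wrt-6, a hedgehog-related gene. Homeobox factors were near the background at 9 of 45 (20%). Their list was led by unc-3 (137), which in fact encodes a COE-family factor, then lim-7 (79.3) and a summit of 70.3 between the Otx-type genes ceh-36 and ceh-37.

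Genes of lipid metabolism flanked distal summits in 11 of 36 cases (30.6%). After fat-1 and fat-2, the highest were cpt-5, a carnitine palmitoyltransferase gene (172, 3436 bp upstream), and acs-2, which encodes a synthetase of acyl-CoA in fatty acid oxidation (128, 3164 bp upstream). The summit at cpt-5 lay nearer to the receptor gene nhr-175, at 1157 bp, and also counts for it. The acs-2 promoter summit was 320.5, higher than the distal one, while cpt-5 had none. Cuticle collagens gave 7 of 25 (28%), with 185 at col-105, 132 at col-185, 68 at col-33 and 67.3 at col-98. The summit at col-105 lay 19898 bp from it and nearer to nhr-41. Immune and secreted gut proteins gave 13 of 57 (22.8%), with 222 at the C-type lectin gene clec-1, 189 at the aspartyl protease gene asp-13, 114 at clec-47 and 103 at asp-19.

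Detoxification enzymes had few distal summits although many of their promoters were marked. Only 2 of 68 genes beside distal sequence flanked one (2.94%), while 183 of the 328 genes on the list had a promoter summit. The 2 were the P-glycoprotein transporter genes pgp-9 (202, against 97.5 at its promoter) and pgp-4 (74.6). The lists of ion channels and neurotransmitter receptors, of neuropeptides and insulins, and of chemoreceptors were below the background as well. Ion channels and neurotransmitter receptors gave 11 of 167 (6.59%), none of them with a promoter summit. The highest were npr-24 (172), npr-28 (165), lgc-21 (161) and acr-18 (128). The summit at npr-24 lay 17865 bp from it and nearer to nhr-1, and the summit at acr-18 was the one given for acs-2. Neuropeptides and insulins gave 4 of 58 (6.90%), namely nlp-67 (115), nlp-8 (106), flp-15 (72) and flp-19 (49.7). Chemoreceptors gave 17 of 230 (7.39%), led by srbc-2 (227), srj-29 (163), srlf-26 (134) and srg-64 (131).

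F-box and MATH-domain genes gave 8 of 69 (11.6%), with 235 between math-28 and math-26, 171 at fbxa-141 and 137 at fbxa-30. Lists with few genes beside distal sequence were cytosolic ribosomal proteins, with 2 of 6 (33.3%) at rps-28 (164) and rpl-21 (119.7), and sperm genes, with 2 of 17 (11.8%) at spe-18 (132) and spe-41 (110.0). The summit at rps-28 also flanked nhr-274. Of the histone genes 1 bordered distal sequence and none flanked a summit. Counted by summit, 31.4% of the 768 had a flanking gene on any of the 15 lists. The lists hold 4119 of the 19973 coding genes, and most summits have 2 flanking genes. No matched background was computed for this share, so it is not read as a feature of the distal summits.

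**Figure D3:**
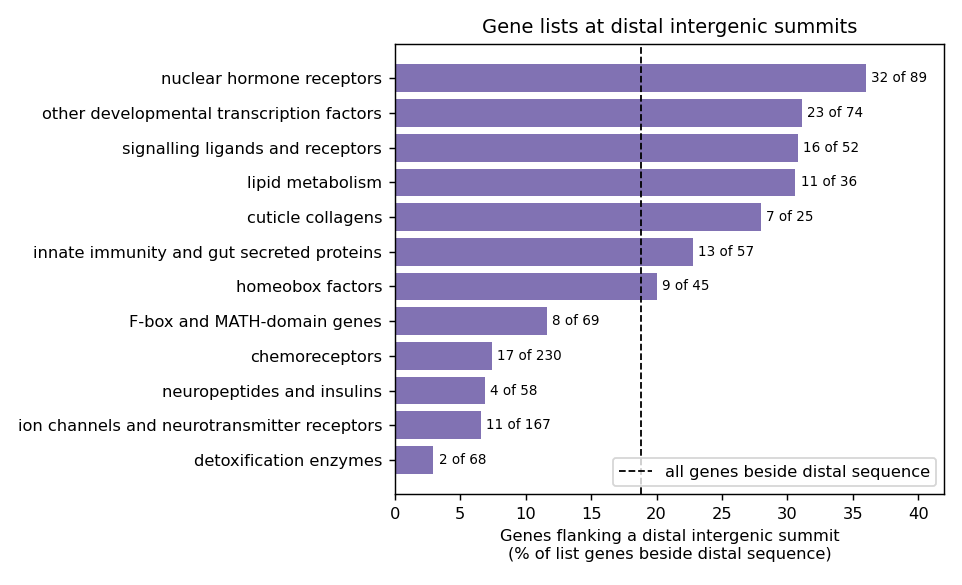
Share of each gene list's genes beside distal sequence that flank a distal intergenic summit (x axis, percent), for the 12 lists with at least 20 such genes; the numbers beside the bars give the counts. The dashed line marks the 18.8% of all protein-coding genes beside distal sequence. Nuclear hormone receptors are at 36% and detoxification enzymes at 2.94%. Shares are not adjusted for the length of distal sequence beside a gene.

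Many distal summits lay near another one. Within 10 kb of another distal summit lay 485 of the 768 (63.2%), in 171 clusters, and 283 stood alone. The rule confines distal summits to 9.42% of the genome, so near neighbours are partly built in. No share matched for this was computed. Of the clusters 98 had 2 members, 39 had 3, 16 had 4, 8 had 5, 5 had 6, 2 had 7 and 3 had 8. Any optimal summit lay within 10 kb of 698 distal ones (90.9%), against 88.0% of all optimal summits, and the median distance to the next optimal summit was 1594 bp, against 2025 bp. Of the 2730 gaps with distal sequence 462 held a member (16.9%), and 169 of these held 2 or more. On X 149 of 211 (70.6%) were clustered, against 336 on the autosomes (60.3%). The median signal was 75.1 in clusters and 66.4 for the summits that stood alone.

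The 3 largest clusters had 8 members each. The first spanned 8837 bp (II 6820502 to 6829339) between snt-1, the synaptotagmin gene, and egl-27, which encodes a chromatin factor related to the MTA proteins. From the snt-1 side its signals were 54.2, 60.2, 127, 192, 74.0, 246, 94.3 and 147, and 11 optimal summits lay within the span. The highest, at II 6824603 to 6824859, had 164 in replicate 1 and 83.9 in replicate 2 and lay 10263 bp upstream of egl-27. The cluster between asp-13 and ZC190.4 spanned 10314 bp (V 8648428 to 8658742), with signals of 189, 122, 39.3, 88.3, 132, 54.8, 39.7 and 51.2 from the asp-13 side. The gap is divergent, so its layout puts all 8 upstream of the gene of their nearest TSS. The asp-13 promoter summit was 44.3. The third spanned 17321 bp (II 7270003 to 7287324) between C30G12.4 and C30G12.2, with signals of 76.2, 79.4, 43.7, 113, 80.7, 110.3, 138 and 124. Its last summit lay 3102 bp upstream of C30G12.2.

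Genes for non-coding RNA were the nearest annotation of many distal summits. The median distance to a gene of any type was 1262 bp, against 206 bp for other intergenic summits, and to a coding gene it was 3568 bp, against 250.0 bp. The nearest gene was an unclassified ncRNA in 300 cases (39.1%) and a coding gene in 293 (38.2%). Within 1000 bp of an ncRNA gene lay 177 (23%), against 11.5% of other intergenic summits and 15.3% of all distal sequence. A piRNA gene was within 1000 bp of 60 (7.81%), while 13.1% of distal sequence lay that close to one. Shares for tRNA genes were 20 summits (2.60%), against 1.18% of distal sequence, and for snoRNA genes 17 (2.21%), against 0.598%. For lincRNA genes there were 14 (1.82%), against 0.970%.

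MicroRNA genes had 23 distal summits within 1000 bp (2.99%), against 0.641% of other intergenic summits and 0.751% of distal sequence. The 23 summits were at 23 microRNA genes, and 15 of them lay upstream of 17 of these genes. The genes below were named after their values were seen. A summit of 194 at X 11791618 to 11791930 lay between mir-239b and mir-239a, 358 bp upstream of mir-239b and 688 bp upstream of mir-239a, with 98.6 in replicate 1 and 106 in replicate 2. It had a neighbour beyond mir-239a of 132 and another beyond mir-239b of 101. Upstream of mir-80 lay a summit of 136 at 264 bp, and upstream of mir-238 one of 114 at 169 bp. For the let-7 family, which times larval development, there was 67.8 upstream of mir-84 at 468 bp and 51.9 upstream of mir-48 at 374 bp. The conserved mir-34 had 37.3 at 537 bp, near the lowest signal of the set. A single summit of 61.5 lay upstream of mir-42, mir-43 and mir-44, which sit side by side.

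The GATA motif TGATAA was within 50 bp of 256 distal summits (33.3%), against 32.2% of other intergenic and 33.3% of all optimal summits. Windows of the same length that tile distal sequence held it in 8.46% of 89771 cases, and windows moved 500 bp to either side of the summits in 11.6 and 9.77%. Its matches were densest at the summit. In steps of 25 bp they numbered 81 to 93 within 50 bp of it and 13 to 28 beyond 250 bp. In 4 bins of 192 summits by signal, from the highest bin down, the share of summits with the motif was 40.6, 31.8, 29.7 and 31.2%. The median signal was 78.2 with it and 69.5 without.

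**Figure D4:**
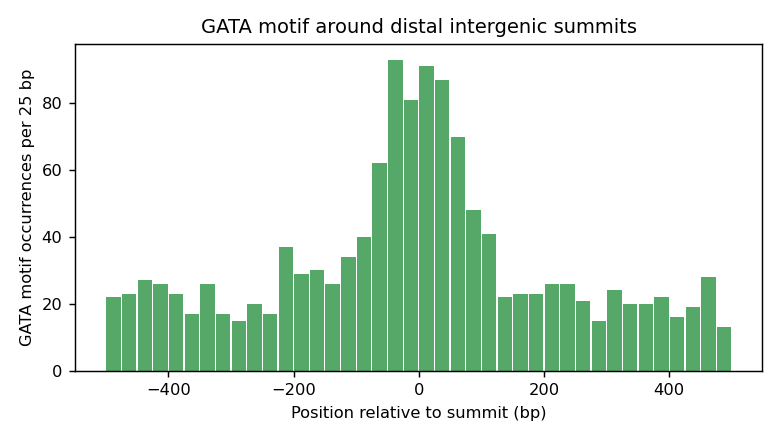
Number of GATA motif matches on either strand per 25 bp step (y axis) by position relative to the summit in bp (x axis), over the 768 distal intergenic summits. Counts reach 93 within 50 bp of the summit and lie between 13 and 28 beyond 250 bp.

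For the other motifs, the share of distal summits is followed by that of all optimal summits and that of windows across distal sequence. GAGAGAGA, a repeat read by GAGA-type factors in flies, was near 6.77%, 5.61% and 0.817%. CCGCCC, a GC box, was near 4.69%, 4.20% and 1.63%. CACGTG was near 4.43%, 4.60% and 1.28%, GTAAACA, the forkhead motif, near 2.47%, 2.61% and 1.39%, and CAGCTG, an E-box, near 2.34%, 2.85% and 1.34%. In each of these 5 the distal share was nearer to that of the optimal set than to that of distal sequence. Of the motifs linked to nuclear receptors, the half-site AGGTCA was near 4.17%, 4.38% and 2.68%, and AGTTCA near 6.51%, 5.98% and 7.16%. The HNF4-type CAAAGTCCA was near 0.260%, 0.126% and 0.0680%, which is 2 distal summits, and AAGTCCA, which is contained in it, near 0.911%, 0.503% and 0.772%.

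Some AT-rich motifs were less frequent at summits than in distal sequence. TAATTA, the homeodomain core, was near 1.30% of distal summits, 1.68% of optimal summits and 5.12% of distal windows. TATAAA was near 8.07%, 7.49% and 12.6%, and TTTCAG, the consensus of the splice acceptor, near 7.16%, 7.15% and 16.6%. The last were TGACTCA or TGAGTCA, near 1.17%, 1.51% and 0.893%, and TGACGTCA, the cAMP response element, near 0.521%, 0.663% and 0.499%. Base composition moved with these shares, since the median GC content was 39.6% at distal summits, against 32.7% in windows of distal sequence, and its part in them was not tested. The optimal set had a median GC content of 40.6%. Of the windows around the 768 distal summits, 98.4% had at least 90% of their 36-base words unique in the genome, against 97.9% of those around optimal summits.

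Both replicates contributed to nearly all distal summits. A region lay over the summit in both replicate lists for 757 (98.6%), against a background of 97.9% of all optimal summits, and 594 (77.3%) ranked within the top 8745 of both, against 78.8%. The optimal set was made from the same replicates, so neither share measures agreement independently. From the highest to the lowest of the 4 bins of signal the second share was 99.0, 98.4, 82.8 and 29.2%. Median signal was 45.9 in replicate 1 and 27.9 in replicate 2, and 664 of the 757 had the higher value in replicate 1. The lists have no shared scale that the sources give, so the gap between them was not read as a difference in binding. Across the 757 regions the Spearman rho between replicates was 0.718, over values of which the optimal signal is close to the sum (median ratio 1.00, quartiles 0.979 and 1.03).

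**Figure D5:**
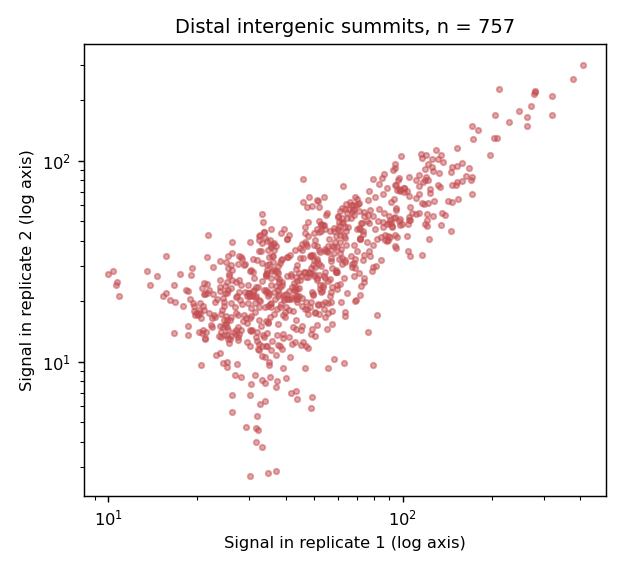
Deposited signal in replicate 2 (y axis, log scale) against replicate 1 (x axis, log scale) for the 757 distal intergenic summits with a region in both lists. Points tighten toward high signal, and a few near 30 to 40 in replicate 1 drop below 3 in replicate 2.

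The distal summits that differed most between replicates were low in replicate 2. The one at IV 9052752 to 9053101, between Y73F4A.1 and nhr-11, stood at 34.9 in replicate 1 and 2.80 in replicate 2, apart by 72.8 points of rank percentile. At X 14566237 to 14566586, between nhr-3 and C44H4.4, the signals were 37.0 in replicate 1 and 2.86 in replicate 2 (72.6 points), and at X 16625057 to 16625406, between cpg-19 and C06G1.1, they were 30.4 and 2.71 (71.5 points). Those higher in replicate 2 differed less. The signals were 9.97 in replicate 1 and 27.2 in replicate 2 at X 6745484 to 6745833, between mdl-1, a MAD-like gene, and abts-4. They were 10.4 and 28.1 at IV 11807458 to 11807807, between H01G02.1 and M117.1, and 10.7 and 25 at II 3028317 to 3028666, between clec-2 and B0454.6. Differences over 50 points were found at 5 of the 757 distal and 44 of the 8557 optimal summits with a region in both lists.

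The genes of the construct did not lie beside a distal summit. The nearest to nhr-28 (X 16354976 to 16359650) was 30623 bp away with a signal of 61.5, and the nearest to unc-119 (III 10902641 to 10908935) was 79706 bp away with a signal of 102. Neither gene had a promoter summit.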

How the data were processed

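Peak lists of 2 biological replicates, their pooled alignments and the optimal set were used on ce11 (WBcel235). Per the deposited descriptions of the files, regions were called with a control alignment as background, and the authors derived the optimal set by IDR from the pooled and replicate lists. For the aligner, the caller and the IDR threshold, no name or value is given in the sources used here. The deposited signal values have no stated scale, and the deposited −log10 q values reached a ceiling of 4.32, so they were not used for ranking. Read depth is unknown. In the optimal set 30 entries shared coordinates and 1 summit offset lay beyond its region's end, none of them distal.

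Summits were placed against Ensembl release 115 genes with Python 3.11.15, pandas 2.3.3, NumPy 2.4.6 and SciPy 1.17.1. The summit was the region start plus the deposited offset. Flanking genes were the nearest coding genes on each side, and clusters were chains of distal summits at most 10000 bp apart. For each replicate, the covering region of highest signal was taken. Motifs were searched on both strands within 50 bp, counting each summit once. Overlap with genes, the nearest TSS and the flanking genes were checked on simulated data, and motif matching on short test strings. The other steps had no such check. Regions are not replicates, so values are described by counts, shares and medians, without tests. Nothing says whether the replicates were separate cultures.

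The summits and the 15 gene lists and 15 motifs were chosen with earlier results of these data known, and the shares per gene beside distal sequence, per Mb and per window of distal sequence were added after seeing the data. Lists were built from symbols, so a name need not hold for each gene. Named were the 15 highest distal summits, the 5 farthest, the members of the 3 largest clusters, the 3 in each direction that differed most between replicates, the 3 on each side of the limit, and up to 4 genes per list, with nhr-28 and unc-119. Alternatives changed the TSS distance, TSS type, promoter and motif windows, cluster distance, signal cut-off and replicate list.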

Additional observations from a re-analysis of the deposited data

How the results depend on the processing

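The number of distal summits depends on its limits. It was 1236 with a TSS distance over 2000 bp, 293 with one over 5000 bp, 294 when the TSS of any gene type was counted and 370 among the 4372 optimal summits of highest signal, while single replicate lists gave 746 to 780. The ratio of the distal to the whole set's median signal, 0.976, was 0.999 over 2000 bp and 0.970 to 1.000 in single replicates. The share within reach of another distal summit was 57.4% at 5 kb and 48.9% among those 4372, and 60.2 to 64.4% in single replicates. The share in the top of both replicate lists was 38.4% when the top was 4372 regions. Counting only the gene of the nearest TSS gave 19.5% with a listed gene (30.4 to 30.8% in single replicates with both flanks) and 35.4% with a promoter summit, which was 47.3% with a promoter of 500 bp upstream to 100 bp downstream. The TGATAA share was 18.1% within 25 bp, 47.9% within 100 bp, 37.0% among the 4372, and 29.5 to 32.9% in single replicates. The other 14 motifs moved mainly with the window. No paired analysis was possible because the labels give 1 group. With read depth unknown, no precision can be given for single signal values.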

Other observations

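Distal summits without a region in one replicate list were 11 in all. The highest, at IV 5764456 to 5764761 near nhr-46, had a signal of 192 in the optimal set and 122 in replicate 1, and none covered its summit in replicate 2. Another at IV 12842266 to 12842489 near txt-19 had 179 in the optimal set and 115 in replicate 1. The remaining 9 had signals of 37.8 to 61.8, and 2 of the 11 lacked a region in replicate 1.

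Long non-coding RNA genes with a distal summit within 1000 bp, named after their values were seen, included linc-151 (168), linc-105 (152, at 813 bp) and linc-107 (124, at 93 bp), each on the downstream side. The region beside linc-103 held the highest distal summit of all at 1009 bp and a second of 93.5 at 221 bp upstream.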
